A study of Drosophila melanogaster with 10 samples.

Results

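The comparison described here is that of G2/M with G1 cells in cultures of Drosophila S2 cells with a low signal for Slimp. S2 is an embryonic Drosophila cell line with haemocyte-like properties. SLIMP, a protein of insect mitochondria, resembles a seryl-tRNA synthetase in sequence. The arrays were chosen by their Slimp signal, as those below 11 on the log2 scale. These were 6 of the 10 arrays of the series, from 3 of its 5 cultures, a culture being the G1 and the G2/M array that share a genotype label and a replicate number. They were labelled control 1, control 2 and SLIMP knockdown 3. Cells labelled control are given as WT S2 cells. The series' design text says that copper sulfate switched on the knockdown in stable S2 lines, and copper is not named separately for the control cells. Living cells stained for DNA with Vybrant DyeCycle Violet were sorted into G1 and G2/M. RNA came from batches of 25000 cells on magnetic beads, and the cDNA was amplified for 15 cycles. The labels do not say whether replicate numbers stand for separate cultures or lines, so the p-values reflect the spread among these arrays alone, and that spread could be technical.

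The Slimp values that chose the arrays are a description and carry no test. They read 8.80 in G1 and 8.90 in G2/M in the culture labelled control 1, 8.95 and 9.06 in control 2, and 8.68 and 8.97 in knockdown 3. The highest array inside the limit thus read 9.06. The lowest outside it read 12.51, in the culture labelled control 3, and the culture labelled knockdown 2 also lay above the limit. The Slimp signal does not follow the genotype labels, and the class with low signal holds 2 cultures labelled control and 1 labelled knockdown. Genotype labels therefore serve below only to name the cultures and to pair their arrays. SerRS-m, the gene of the mitochondrial seryl-tRNA synthetase, read 10.01, 10.08 and 9.88 in the 3 G1 arrays and 10.37, 10.34 and 10.30 in the G2/M arrays, a rise of 0.34 ± 0.06 (log2, SE, adjusted p = 0.0178 in limma).

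A dividing cell copies its DNA in S phase, between G1 and G2, and separates the copies in mitosis (M). Transcripts of many mitotic regulators build up towards G2 and M, among them mitotic cyclins, kinesins, kinetochore and spindle genes, and many are lost again as cells leave mitosis. Replication genes are driven by E2F factors and in many cells peak around the start of S phase. Cells sorted by DNA content as G2/M are mostly in G2, since mitosis is short.

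The 11 defining haemocyte genes lay in the upper part of the signal range but were not the only markers there. They ran from NimC1, a phagocytosis receptor above 61.4% of all probe sets, through the GATA factor srp (79.6%) to Col4a1, a basement membrane collagen (99.5%). Of the neuronal markers, elav lay above 85.8% of probe sets, brp above 72.4% and nSyb above 55.9%, and of the germline markers, aub lay above 79.6%, bam above 73.9% and vas above 13.1%. Testis markers ran from 1.35% (dj) to 38% (Mst98Ca), muscle markers from 23.3% (Act88F) to 51.6% (Mlp60A), and the fat body markers Lsp2 and Yp1 lay above 5.55% and 16.7%. Medians of the 6 arrays lay between 6.53 and 6.58 (log2). Arrays carry no read depth, and their number limits the precision here.

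From G1 to G2/M, many genes of mitosis, DNA replication, the nuclear pore and the mitochondrial ribosome rose and few fell. Among genes of detoxification, the copper response and EGFR signalling, more fell than rose. The fit, with culture as a block and p-values adjusted over all 18769 probe sets, called 3664 of them (19.5%), 2189 higher in G2/M (11.7%) and 1475 lower (7.86%). The median difference over all probe sets was 0.01 (log2). Most changes were small, with a median of 0.39 among those called higher and -0.40 among those called lower. Only 80 of the called probe sets rose and 71 fell by more than 2-fold. Every called probe set moved one way in all 3 cultures, as did 52.8% of all probe sets, and in 3365 the G1 and G2/M arrays did not overlap, against 34.0% of all probe sets. Here and below, fewer cells with a transcript and less RNA per cell cannot be told apart.

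The count of calls depended on the cultures and the split of directions on the scaling. Without the culture labelled control 1 the count was 2175, without control 2 it was 1264 and without knockdown 3 it was 555. Such a fit has 4 arrays and 1 residual degree of freedom, and in the counts given below without a culture, rose and fell mean that a gene still passed. List medians moved by more than their spread between cultures in 6 of 57 lists without control 1, in 7 without control 2 and in 6 without knockdown 3. With cyclic loess between arrays, 1754 rose and 1833 fell, which brought the share of higher calls from 59.7% to 48.9%. Calls were few among dim probe sets, where the 4693 probe sets with the lowest mean signal held 47 higher and 106 lower calls, while the 4692 with the highest held 949 and 505. The culture labelled control 2 had the largest change in 900 of the 1475 probe sets called lower, and its G1 array was the highest in 1032 of them. The culture labelled knockdown 3 had the largest change in 1158 of the 2189 called higher.

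**Figure D1:**
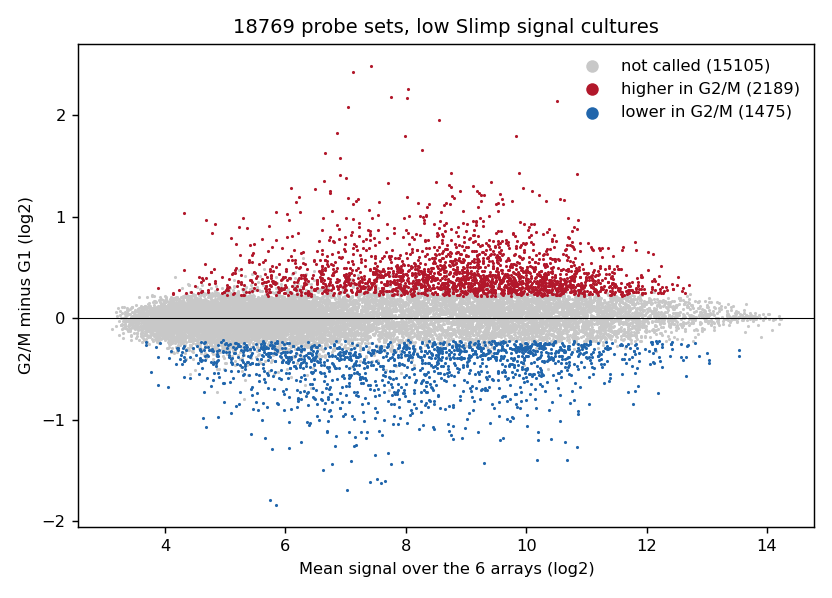
Difference between G2/M and G1 (vertical axis, log2, mean of 3 cultures) against the mean signal over the 6 arrays (horizontal axis, log2) for 18769 probe sets, 1 point each. The 2189 probe sets called higher are red and the 1475 called lower are blue, and both are sparse at the dim end.

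The genes with the largest rises were of mixed function. NANS, the gene of sialic acid synthase, read 6.0, 6.31 and 6.21 in G1 (cultures control 1, control 2 and knockdown 3, the order used for all values below, in log2) and 8.41, 8.77 and 8.79 in G2/M. It was 5.60-fold higher in G2/M (SE of the log2 difference 0.06, adjusted p = 0.000661 in limma), and the phases were far apart in every culture. Phyhd1, a dioxygenase gene related to phytanoyl-CoA hydroxylase, went from 5.71, 6.20 and 5.82 to 8.46, 8.34 and 8.20, a 5.37-fold rise (adjusted p = 0.00203). Sirt4, a mitochondrial sirtuin gene, went from 6.53, 6.71 and 6.75 to 8.76, 8.83 and 8.93, a 4.52-fold rise (adjusted p = 0.000661). The arrays of each phase lay close together for this gene, with SDs of 0.12 in G1 and 0.09 in G2/M (n = 3 each). The minus-end-directed kinesin gene ncd, needed for spindle poles, went from 9.56, 9.54 and 9.25 to 11.54, 11.61 and 11.60, a 4.39-fold rise (adjusted p = 0.00177).

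Others among the 12 largest rises have known roles in translation, mitochondria, replication and the germline. SecS, the selenocysteine synthase gene, rose 3.54-fold, from 6.06, 5.79 and 5.98 to 7.79, 7.77 and 7.76. Mul1, which encodes a mitochondrial ubiquitin ligase, rose 3.47-fold, and here control 2 stood apart, with 8.34 in G1 against 9.25 and 9.21 in the others. RfC3, a subunit of the clamp loader that places PCNA on DNA, rose 3.16-fold, from 7.68, 7.14 and 7.50 to 9.08, 9.08 and 9.14. The piRNA pathway gene tej rose 3.09-fold. The rest were CG15653 (4.49-fold), CG10508 (3.87-fold, the probe set with the smallest p of 3 that all rose), CG31125 (3.48-fold) and CG4570 (2.99-fold).

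The largest falls among named genes were led by a chitinase, a calcineurin subunit and a glutathione S-transferase. Cht7, a chitinase gene, went from 7.89, 8.18 and 7.55 to 6.26, 6.19 and 6.07, and was 3.24-fold lower in G2/M (log2 -1.70 ± 0.11 SE, adjusted p = 0.00214 in limma). CanB, the regulatory B subunit of the phosphatase calcineurin, went from 8.33, 8.78 and 8.28 to 6.94, 6.89 and 6.76, 3.04-fold lower. In both, control 2 had the highest G1 value, while the G2/M arrays differed by little. GstD6 was 3.01-fold lower (8.04, 8.96 and 7.96 against 6.53, 6.92 and 6.74). Its signal may include RNA of the neighbouring, closely related GstD genes, and is uncertain for that reason. The metallothionein gene MtnB, which binds copper and is induced by it, went from 11.19, 11.67 and 11.28 to 10.11, 10.01 and 9.81, 2.64-fold lower. Obp49a, an odorant-binding protein gene, was 2.71-fold lower, pdm3, a POU-domain transcription factor gene, 2.42-fold lower, and the cytochrome P450 gene Cyp4p3 2.45-fold lower. The others were CG31272 (2.83-fold), Srg2 (2.68-fold), CG3526 (2.66-fold), CG8620 (2.64-fold) and CG7888 (2.54-fold). All 24 of these rises and falls passed the threshold in each alternative that kept their probe set, including without each culture in turn. They were chosen from these same arrays for size and separation of the phases, so this adds no independent support. Adjusted p-values of the 24 in limma ran from 0.000661 to 0.00456.

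**Figure D2:**
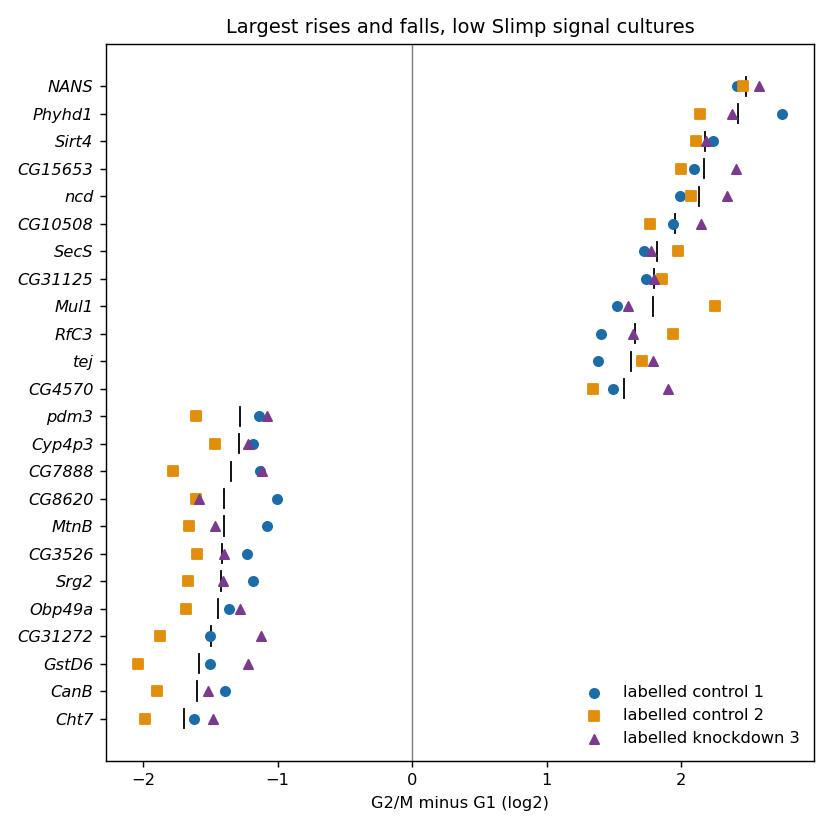
Difference between G2/M and G1 (log2) in each of the 3 cultures for the 12 largest rises and 12 largest falls among genes with 1 symbol. Symbols are cultures and the black tick is their mean. The squares of the culture labelled control 2 lie furthest left in all 12 falls.

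Many regulators of mitosis rose. Among cyclins, Cdks and Cdc25 phosphatases, 7 of 11 measured genes rose and none fell (median 0.32, against 0.02 over 1 probe set for each of 11982 genes, of which 14.7% rose and 8.13% fell). CycB3, a mitotic cyclin, went from 9.27, 9.03 and 9.21 to 10.62, 10.49 and 10.68 (log2 1.43 ± 0.06 SE, adjusted p = 0.00197 in limma). CycB, the other B-type cyclin, went from 9.65, 9.61 and 9.64 to 10.31, 10.41 and 10.39, with no overlap between phases. CycJ (0.98) and Cdk2 (0.82) also rose. Of mitotic kinases and chromosomal passengers 8 of 13 rose and none fell (median 0.40), among them aurB, the Aurora B kinase (1.17), its partner Incenp (0.93) and the chromatin kinase ball (0.90). Without knockdown 3 the rises were 3 of 11 and 6 of 13, and Cdk2 did not pass. Without control 1, 4 of 11 cyclins, Cdks and Cdc25 phosphatases rose.

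Kinetochore genes were the list with the largest median. They link chromosomes to spindle microtubules, and 12 of 13 rose (median 0.68), all but cal1 (-0.07, not called). Ndc80, a microtubule-binding subunit, went from 8.25, 8.31 and 8.26 to 9.51, 9.52 and 9.53 (log2 1.25 ± 0.06 SE, adjusted p = 0.00198 in limma). Within each phase the 3 arrays were nearly equal. Cenp-C, the base of the kinetochore, rose by 1.20, Nuf2 by 1.12 and Spc105R by 0.88. Of the spindle checkpoint and the anaphase-promoting complex 12 of 19 rose and none fell (median 0.33), led by fzy, the Cdc20 activator (1.16), and pim, the securin (0.62). Without the culture labelled knockdown 3, 8 of 13 kinetochore genes and 3 of 19 checkpoint genes rose, and without control 2, 6 of 19 checkpoint genes did. Without control 1, 8 of 19 checkpoint genes rose.

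Spindle, centrosome and chromosome structure genes moved the same way. Of 30 genes of the spindle, the centrosome and augmin 20 rose and none fell (median 0.41). The augmin gene msd5 rose by 1.34 and spd-2, a centrosome scaffold gene, by 1.32. Of 10 mitotic kinesins 5 rose (median 0.38), with Klp67A (1.09), cmet, the relative of CENP-E (0.95), and nod (0.70) after ncd, and the same number passed without any 1 culture. Condensin, which compacts chromosomes, rose through SMC2 (1.22), glu (1.15) and Cap-D2 (1.04), while the cohesin loader gene Nipped-B fell by 1.12 (7.09, 7.56 and 7.12 against 6.23, 6.35 and 5.85). In this list of 16 condensin and cohesin genes 7 rose and 1 fell. Of 13 cytokinesis genes 7 rose and 2 fell (median 0.40), with spd-2 in this list as well, and tum (0.88), the anillin gene scra (0.75) and pbl (0.64). Without knockdown 3 the rises were 8 of 30 for the spindle and 4 of 13 for cytokinesis, and without control 2 they were 13 of 30 for the spindle. The falls among cytokinesis genes were 0 without knockdown 3 and 1 without control 2.

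**Figure D3:**
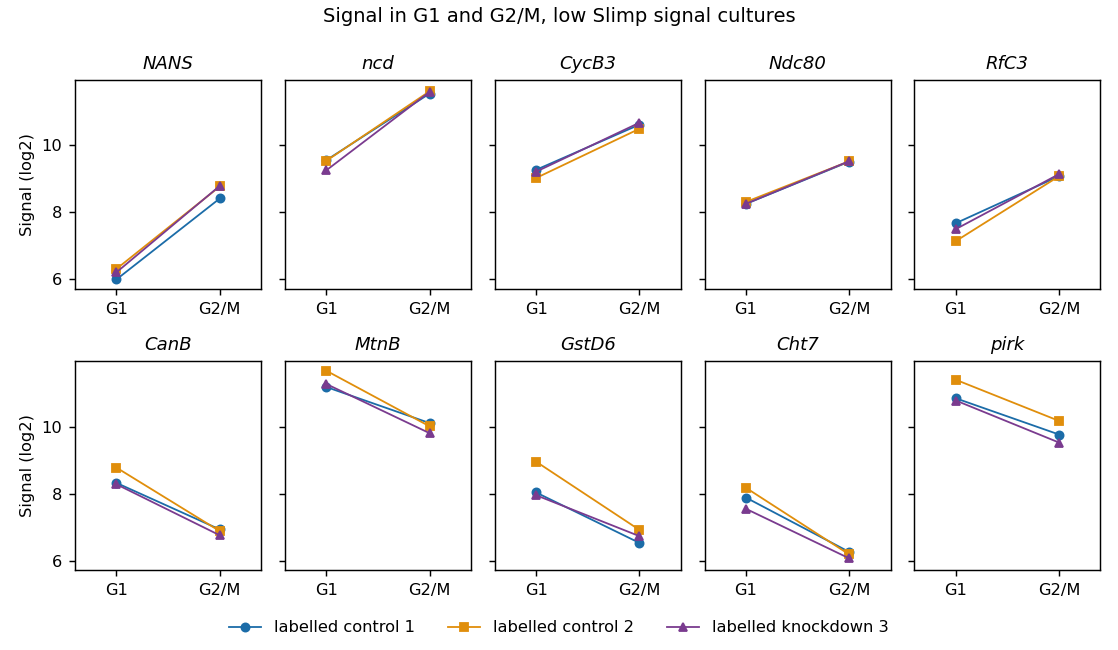
Signal (log2) in G1 and G2/M of each of the 3 cultures for 5 genes that rose and 5 that fell. Lines join the arrays of a culture, and all lines of a panel run the same way, with the culture labelled control 2 highest in G1 in the falling genes.

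Replication genes were higher in G2/M than in G1. Of 40 genes for origin licensing and the replication fork 28 rose and none fell (median 0.47). Cdc6, which loads the MCM helicase on origins, went from 6.54, 7.01 and 6.30 to 7.68, 8.11 and 7.59 (log2 1.18 ± 0.07 SE, adjusted p = 0.00203 in limma). In each culture the rise was of similar size although the levels differed. The origin recognition gene Orc5 rose by 1.14 and PolD2, a subunit of DNA polymerase delta, by 0.91. PCNA, the sliding clamp, did not pass (-0.19), and it was chosen for mention after its value was seen. The list median was 0.29 in control 1, 0.62 in control 2 and 0.50 in knockdown 3. Without knockdown 3, 7 of the 40 passed, with a list median of 0.46, and without control 2, 15 passed, with a median of 0.42. Of 10 genes of E2F, Rb and the dREAM complex 7 rose (median 0.34), led by lin-52 (1.21), a dREAM subunit, and Rbf2 (0.50). Without knockdown 3, 1 of these 10 rose, and without control 2, 4 did. Genes of nucleotide supply gave 4 higher and 1 lower of 16 (median 0.08), where 14.7% of all genes rose and 8.13% fell. Of these 16 genes 0 were called without control 2 or knockdown 3. Of 14 genes for histone variants and histone mRNA processing 7 rose and none fell (median 0.26), among them Lsm10 (0.53) and mute (0.46), against 0 without knockdown 3, 1 without control 2 and 4 without control 1.

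The nuclear pore and the DNA damage response also held large rises. Of 26 nucleoporin and pore genes 20 rose (median 0.41), and 1, which encodes a precursor that is cleaved into a pair of nucleoporins, fell by 0.40. Nup35 went from 10.11, 10.27 and 10.02 to 11.48, 11.57 and 11.60, and Ndc1, a transmembrane anchor of the pore, rose by 1.30. Without knockdown 3, 6 of 26 rose, and without control 2, 9 did. Of 28 DNA damage and apoptosis genes 8 rose and 5 fell (median -0.01), where 14.7% of all genes rose and 8.13% fell. Of the 28, 13 had a difference above 0. The checkpoint kinase gene lok, the fly Chk2, rose by 0.99 and Fancd2, of the Fanconi pathway, by 0.96. Both Ku subunits, which bind broken DNA ends, fell, Irbp by 0.56 and Ku80 by 0.41, and Dronc, the initiator caspase, fell by 0.55. Without knockdown 3 this list gave 3 higher and 0 lower, without control 2, 4 and 2, and without control 1, 6 and 3. Without the replicate block it gave 6 and 1. The fall among pore genes did not pass without knockdown 3 or control 2.

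Transcripts of many genes for mitochondrial ribosomal proteins and respiratory complex subunits rose by small amounts. Of 69 genes for mitochondrial ribosomal proteins 47 rose and none fell (median 0.30), and 68 had a difference above 0. The protein gene mRpL2 went from 9.24, 9.21 and 9.03 to 10.03, 10.05 and 9.97 (log2 0.86 ± 0.06 SE, adjusted p = 0.00234 in limma), and mRpL9 rose by 0.85. Of complex I subunits 17 of 32 rose (median 0.24), with ND-B16.6 at 0.52, and of complexes II to V 17 of 42 (median 0.16), with SdhD at 0.58, and none fell in either list. Without the culture labelled knockdown 3, 6 of 69, 0 of 32 and 0 of 42 passed, while the medians were 0.28, 0.22 and 0.16, and without control 2 the counts were 18, 1 and 1 (medians 0.31, 0.24 and 0.14). Without control 1 they were 29, 11 and 6 (medians 0.33, 0.27 and 0.19). The list medians within the cultures were 0.27, 0.32 and 0.35 for mitochondrial ribosomal proteins and 0.20, 0.23 and 0.29 for complex I, so the direction was the same in each.

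Other mitochondrial genes were less uniform. Of 12 genes for mtDNA maintenance and transcription 5 rose (median 0.24), among them PolG1, the mtDNA polymerase (0.55), and mtTFB2, a transcription factor (0.50). Of 14 mitochondrial aminoacyl-tRNA synthetases 5 rose (median 0.12), with AsnRS-m at 0.81 and TrpRS-m at 0.60 above SerRS-m. Of 17 TCA cycle genes 7 rose and 1 fell. Mitochondrial import and dynamics genes gave 3 higher and 4 lower of 30, where 14.7% of all genes rose and 8.13% fell. Among them were the mitophagy kinase gene Pink1 at 0.64 and the Miro adaptor gene milt at -0.51. Without knockdown 3, 0 of 12, 1 of 14 and 0 of 17 genes of the first 3 lists rose. Without control 2, 3, 3 and 1 did, and without control 1, 3, 3 and 5. Import and dynamics genes gave 1 higher and 0 lower without knockdown 3, 1 and 1 without control 2, and 1 and 3 without control 1. Without the replicate block they gave 1 and 3.

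Among genes of cytosolic protein synthesis few were called. None of 34 cytosolic ribosomal protein genes was called (median 0.03, 0 by limma, with 2 higher when all 10 arrays entered the fit). None of 13 chaperonin and prefoldin genes was called either, and 2 of 40 proteasome genes rose. A shift common to most transcripts may be hidden here, because RMA evens out the distribution of probe intensities among arrays processed together. Which arrays were processed together is not given. Ribosome biogenesis gave 6 higher and 4 lower of 32, where 14.7% of all genes rose and 8.13% fell. The largest rise in it was that of Rrp1 (0.75), in flies a DNA repair gene and thus out of place in this list. Cytosolic aminoacyl-tRNA synthetases gave 0 higher and 1 lower of 16. Without knockdown 3 ribosome biogenesis gave 1 higher and 0 lower, without control 2 it gave 2 and 0, and without control 1 it gave 3 and 0. Without the replicate block it gave 5 and 2. No proteasome gene passed without any 1 of the 3 cultures.

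Among detoxification genes, glutathione S-transferases and UDP-glycosyltransferases fell more often than they rose. Of 34 glutathione S-transferase genes, whose enzymes couple glutathione to foreign compounds, 13 fell and 5 rose (median -0.18). After GstD6, GstD5 fell by 1.06 (10.37, 10.89 and 10.40 against 9.59, 9.52 and 9.36), GstE11 by 0.82 and GstD2 by 0.72. GstO1, of the omega class, rose by 1.20 instead, from 7.45, 7.54 and 7.29 to 8.58, 8.58 and 8.71. Gclc, the catalytic subunit of the first enzyme of glutathione synthesis, fell by 0.83. Of 35 UDP-glycosyltransferases 8 fell and none rose (median -0.14), led by Ugt37D1 (7.63, 8.03 and 7.55 against 6.54, 6.64 and 6.51), which fell by 1.17. Of 83 cytochrome P450 genes 12 fell and 6 rose (median -0.04), where 8.13% of all genes fell and 14.7% rose. The mean signal over the P450 list was 6.21 to 6.39 in the 6 arrays, and 5.24 to 5.54 for UDP-glycosyltransferases. Of the 4692 probe sets with mean signals from 5.15 to 6.58, 199 rose and 271 fell. The shares over all genes are thus not those of genes as dim as these 2 families. Cyp4p1 was at -1.26 beside Cyp4p3. Members of these families are similar in sequence and may share signal. Without knockdown 3 the falls were 3 of 34 glutathione S-transferases, 2 of 35 UDP-glycosyltransferases and 6 of 83 P450 genes, and without control 2 they were 7, 2 and 8. GstD5 did not pass without knockdown 3. The rises among glutathione S-transferases were 1 without knockdown 3, 1 without control 2 and 3 without control 1, and those among P450 genes were 0, 0 and 4. Without control 1, 3 of 35 UDP-glycosyltransferases fell. Without the replicate block 3 UDP-glycosyltransferases fell, and 10 P450 genes fell and 3 rose.

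Copper and stress genes fell in part. Over all genes, 8.13% fell and 14.7% rose. Of 17 copper and metal response genes 6 fell and none rose (median -0.11), with the metal ion transporter genes Mvl (-0.45) and ZnT35C (-0.39) beside MtnB, MtnD (-0.41), the copper importer gene Ctr1B (-0.33) and the copper pump gene ATP7 (-0.30). Of 15 genes of the ATF4 and amino acid stress response 5 fell and 2 rose, the rises near the share over all genes. Gadd45 went from 9.24, 9.99 and 9.30 to 8.52, 8.77 and 8.25, a fall of 1.0 (log2, SE 0.10, adjusted p = 0.00426 in limma). The TOR inhibitor gene scyl fell by 0.87. Of 11 heat shock protein genes 3 fell, led by Hsp26 (-0.50). Without knockdown 3, 1 of 17 copper genes, 0 of 15 ATF4 genes and 0 of 11 heat shock genes fell, and neither Gadd45 nor scyl passed. Without control 2 the falls were 1, 2 and 0, and without control 1 they were 3, 3 and 3. The 2 rises among ATF4 genes did not pass without any 1 of the 3 cultures, and without the replicate block 1 heat shock gene fell.

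**Figure D4:**
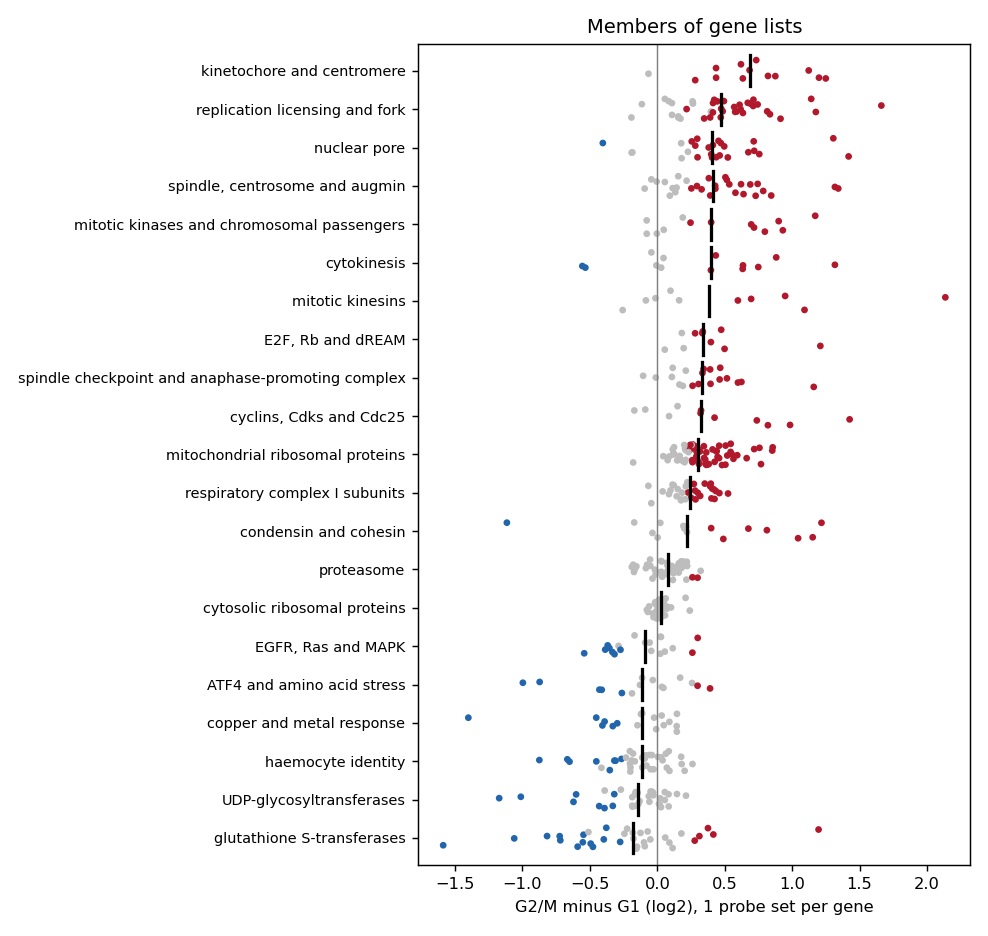
Difference between G2/M and G1 (log2) for the members of 21 gene lists, 1 probe set per gene. Red points were called higher, blue points lower, grey points were not called, and the black bar is the list median, which lies furthest right for the kinetochore (0.68) and furthest left for glutathione S-transferases (-0.18).

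Signalling, immune and haemocyte genes also held falls. Of 25 immune genes 5 fell and 2 rose (median 0.02, -0.04 with cyclic loess), where 8.13% of all genes fell and 14.7% rose. The largest fall was that of pirk, which limits signalling through the Imd receptor complex, from 10.85, 11.40 and 10.78 to 9.77, 10.17 and 9.53 (log2 -1.19 ± 0.06 SE, adjusted p = 0.00203 in limma). The antibacterial peptide gene AttD fell by 0.69. Of 19 genes of EGFR, Ras and MAPK signalling 7 fell and 2 rose (median -0.09), and those that fell include the feedback inhibitor genes sty (-0.39), kek1 (-0.37) and Mkp3 (-0.36). Egfr itself fell by 0.54, with a low signal (5.12, 5.59 and 4.73 against 4.43, 4.86 and 4.52) and overlapping phases, and did not pass without control 1, without control 2 or without the replicate block. Single members of other pathways fell by more, namely fng, which modifies Notch (-1.12), upd2, a ligand of the JAK-STAT receptor (-0.96), and foxo, a transcription factor under insulin control (-0.81). Without knockdown 3, 3 of 25 immune genes and 1 of 19 EGFR genes fell, and without control 2 the counts were also 3 and 1. Without control 1 they were 3 and 3. The 2 rises among EGFR genes did not pass without any 1 of the 3 cultures, those among immune genes were 0 without knockdown 3 and 1 without control 1 or control 2, and without the replicate block 1 EGFR gene rose and 4 fell.

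Among markers of cell identity, haemocyte genes gave 8 lower and 0 higher of 37 (median -0.11). Over all genes, 14.7% rose and 8.13% fell. Sr-CI, a scavenger receptor of phagocytes, went from 8.34, 8.26 and 8.39 to 7.49, 7.44 and 7.44, and Pvf2, a growth factor gene for haemocytes, fell by 0.67. The abundant haemocyte genes Hml (0.20), Pxn (0.26) and Col4a1 (0.04) were not called. Germline markers gave 6 higher and 1 lower of 11 (median 0.32). Beside tej, bam, a germline differentiation gene, rose by 0.87, and the piRNA pathway genes aub and piwi by 0.57 and 0.49, whereas osk fell by 0.69. The defining germline marker vas stayed near the bottom of the scale, between 4.40 and 4.85 over the 6 arrays. Of 10 muscle markers 3 fell, led by Mlp60A (6.61, 7.40 and 7.51 against 6.30, 6.25 and 6.24), where control 1 differed least between phases. Testis markers gave 1 higher of 15, neuronal markers 1 lower of 12, and markers of fat body and gut none of 11. The testis and neuronal counts were near or below the shares over all genes. Without knockdown 3, 3 of 37 haemocyte genes fell, 2 of 11 germline markers rose and none of 10 muscle markers fell. Without control 2 the counts were 3, 3 and 2, and without control 1 they were 4, 4 and 2. Mlp60A did not pass without control 2 or knockdown 3, and osk did not without knockdown 3.

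The last comparison asked where the phase difference itself differed between the 3 cultures with low and the 2 with high Slimp signal. The high class was labelled control 3 and knockdown 2, so neither class follows the genotype labels. In 1 fit of all 10 arrays, the interaction called 38 probe sets (0.202%), of which 33 (0.176%) had the higher phase difference in the low class and 5 (0.0266%) in the high class. Of the 38, 19 fell in the high class without being called in the low class. The same fit called 3979 probe sets between phases in the low class (21.2%) and 985 in the high class (5.25%), but the classes hold 3 and 2 cultures and the counts do not compare their responses. Of the 3664 calls in the low class, 76.5% moved the same way in both high cultures, with a median there of 0.19 for those called higher and -0.28 for those called lower. The same share over all probe sets was not counted, so the 76.5% is a description, and agreement between the classes was not tested.

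The genes named here come from the 0.202% of probe sets that passed, and so few calls do not show which kinds of genes differ. The piRNA gene tej rose in the low class, from 6.07, 5.79 and 5.68 to 7.46, 7.49 and 7.47, and in the high class it went from 4.96 and 5.22 (cultures knockdown 2 and control 3, the order used for high values) to 5.23 and 5.23. The difference between classes was 1.48 ± 0.15 (log2, SE, adjusted p = 0.0252 in limma). Sirt4 rose in both, by 2.18 in the low and by 1.40 in the high class (adjusted p = 0.0374). NijB, a ninjurin gene for a membrane protein, read 4.96 to 5.18 in all low arrays, and in the high class it went from 6.94 and 6.57 in G1 to 5.45 and 5.15 in G2/M (difference 1.53 ± 0.11 SE, adjusted p = 0.00878). The dopamine receptor gene Dop2R was similar, at 6.95 to 7.28 in the low arrays and from 9.12 and 9.13 to 7.89 and 7.47 in the high arrays. CG1607 moved in opposite directions, by 0.75 in the low and by -0.60 in the high class. Sid, a stress-induced DNase gene, did the reverse, with -0.30 in the low and 0.56 in the high class. Cyp4p3 had its fall in the low class (-1.29 against -0.31, adjusted p = 0.0452 in limma). For some of these genes the signal in 1 class was low. The 4693 dimmest probe sets had mean signals up to 5.15. In the high class Cyp4p3 read only 5.04 and 5.03 in G1, and tej 4.96 to 5.23 in all arrays. NijB was as low in the low class. Whether such low signals limited the phase difference in that class was not tested.

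These interaction calls rested on few arrays. Without the culture labelled knockdown 2, control 3 or knockdown 3 the fit called 0, without control 2 it called 1 and without control 1 it called 33. At an unadjusted p under 0.05 there were 2637 in the full fit. When dim probe sets were left out the count was 468, and with a trended and robust prior it was 660. No member of the kinetochore, spindle, replication, nuclear pore or mitochondrial ribosome lists passed, where 0.202% of all probe sets did. At that share few or none would be expected in lists of this size. The medians of these named lists were 0.68 against 0.35, 0.41 against 0.13, 0.47 against 0.09, 0.41 against 0.15 and 0.30 against 0.27 in the low and high class. The difference of these medians was not tested.

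**Figure D5:**
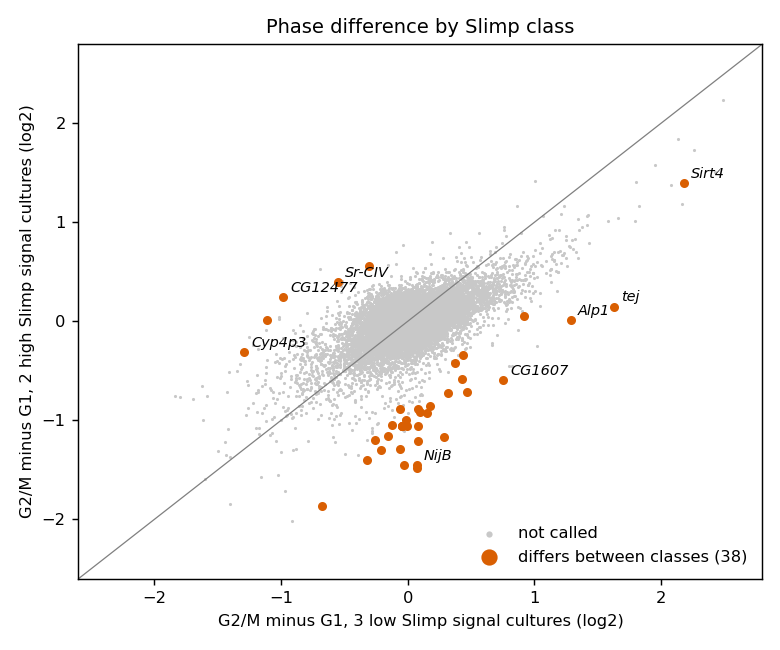
Difference between G2/M and G1 in the 2 high Slimp cultures (vertical axis, log2) against that in the 3 low Slimp cultures (horizontal axis, log2), 1 point per probe set, with the line of equality. The 38 probe sets whose phase difference differed between classes are orange, and most lie below the line where the high class fell.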

How the data were processed

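The authors deposited log2 values per probe set. They came from RMA, as the submitters' processing notes state, and its version and the grouping of arrays for it are not given in the sources used here. No detection calls were used. Of 18952 probe sets, 183 array controls were left out and the other 18769 tested. The platform annotation gave 1 gene symbol to 13647, several to 402 and none to 4720, and symbols were updated through RefSeq Release 6 for 13544. Of 11982 genes, 1094 had several probe sets, and 6 of these were called in opposite directions. No sequence was used.

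The 6 arrays were fitted with limma 3.58.1 in R 4.3.3 (phase plus culture as a block, residual df 2, prior df 3.59), with Benjamini-Hochberg adjustment over all probe sets and a threshold of 0.05. The interaction used all 10 arrays. The replicate numbers were used to pair the samples. Deviations from the mean of each phase correlated at 0.350, 0.393 and 0.331 within cultures and between -0.246 and -0.110 across them. With deviations taken from the mean of 3 arrays, positive values within cultures bring negative ones across them, so the latter add no support. The fit was tested on simulated data with independent noise. This checks the code and does not address how the counts depend on single cultures.

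Members and lists were chosen with earlier results of these data known. Named genes were Slimp and SerRS-m, the 12 largest rises and 12 largest falls past the threshold (1 symbol, phases not overlapping, 1 probe set per gene), up to 4 members per gene list past it, or the 2 with the smallest p where none passed, and the 5 largest differences each way for the interaction. Any gene beyond this rule was picked with its values in view. In the 57 lists each gene had its probe set with the highest mean. Alternatives were the fit without a block, all 10 arrays, no dim probe sets, a trended and robust prior, cyclic loess, median centring, the probe set with the smallest p, and leaving out each culture.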

Additional observations from a re-analysis of the deposited data

Results flagged for a closer look

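For the 10 genes named by the size of their class difference, 5 each way, the difference between G2/M and G1 differed between the cultures with low and high Slimp signal in the interaction test. Given as the low minus the high class on the log2 scale, it was 1.53 for NijB, 1.48 for tej, 1.46 for CG32280, 1.42 for Dop2R and 1.35 for CG1607. It was -1.23 for CG12477, -1.13 for CG31219, -0.98 for Cyp4p3, -0.95 for the scavenger receptor gene Sr-CIV and -0.87 for Sid. CG32280 rose by 0.29 in the low class and went from 10.24 and 10.84 in G1 to 9.28 and 9.45 in G2/M in the high class. CG12477 fell by 0.99 in the low class and differed by 0.24 in the high class. CG31219 fell by 1.11 in the low class and differed by 0.02 in the high class. Sr-CIV fell by 0.55 in the low class, from 8.47, 8.78 and 8.50 to 8.07, 8.12 and 7.90, and was 0.39 higher in G2/M in the high class. Sirt4, named for its rise, also passed the interaction test, with 0.78, as did Alp1 (1.28) and Lerp (0.86), which were chosen after their values were seen. Of these 10 genes and Sirt4, 11 in all, 6 did not pass without the replicate block, 3 without control 1 and 10 without control 2, and none passed without the culture labelled knockdown 2, control 3 or knockdown 3. The classes were set by the Slimp signal and do not follow the genotype labels, and class and culture cannot be told apart with 3 cultures against 2.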

How the results depend on the processing

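For G2/M against G1, without the replicate block that pairs the arrays of a culture limma called 2827 probe sets (1816 higher, 1011 lower), with all 10 arrays 3979, without dim probe sets 4751 of 9385, with a trended and robust prior 5485 (2219 lower), with cyclic loess 3587 and with median centring 3836. Leaving out 1 culture gave 555 to 2175 calls, 328 to 1272 higher and 227 to 903 lower. For the difference between Slimp classes, no block gave 31 (1 below), no dim probe sets 468 (370 above, 98 below), the trended and robust prior 660 (498 and 162) and cyclic loess 39 (9 below). Leaving out 1 culture gave 0 to 33 calls, 0 to 27 above and 0 to 6 below. No named gene changed direction in any alternative that kept its probe set. Of 213 named results, 21 lost their call without the block, 7 with cyclic loess, 3 with all 10 arrays, 34 without control 1, 77 without control 2 and 112 without knockdown 3, and none with median centring, a trended and robust prior or, where kept, without dim probe sets. Of 57 list medians 24 moved with cyclic loess by more than their spread between cultures, and 3 with median centring. The cause was not tested, except that fits without a culture have fewer arrays. Dim probe sets have only relative signal.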

Other observations

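Genes that changed had a neighbour that changed the same way more often than genes that were not called had such a neighbour, although most had none. With the gene order of RefSeq Release 6, 42.7% of 1725 genes that rose had a neighbour that rose, against 21.2% of 8913 genes that were not called. Of 945 genes that fell, 29.1% had a neighbour that fell, against 12.7% of those not called. There were 82 runs of 3 or more neighbouring genes that rose and 26 that fell. The longest run of falls held 10 genes, CG4115, Tim17a1, GstD10, GstD9 and GstD1 to GstD6, in which the GstD genes are alike in sequence. The longest run of rises held 8 genes, Set, ATPsynO, CG14864, Zip88E, Cp190, CG4338, MRG15 and l(3)neo43, of which Cp190 encodes an insulator protein and MRG15 a chromatin protein. These shares are a description. The part of shared sequence and overlapping transcripts in them was not tested.

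Single genes outside the cell cycle lists rose by as much as some mitotic genes, while the families below held more falls than rises. The Alp1 gene for an alkaline phosphatase rose by 1.28 in the low class and differed by 0.01 in the high class, and was chosen after its value was seen, as was Lerp, a lysosomal sorting receptor gene (0.92 and 0.05). Of 236 odorant-binding and chemosensory genes 5 rose and 10 fell (median -0.01), where 14.7% of all genes rose and 8.13% fell, with Gr94a (-0.84), Ir40a (-0.82) and Or22a (-0.67) behind Obp49a. The counts were 0 and 3 without knockdown 3, 2 and 6 without control 2, 1 and 9 without control 1, and 3 and 8 without the replicate block. The mean signal of this list lay between 4.98 and 5.10 (log2) in the 6 arrays. The 4693 probe sets with the lowest mean signal, up to 5.15, held only 47 higher and 106 lower calls. The shares over all genes are thus not those of genes as dim as these. Of 32 tetraspanins 3 rose and 6 fell, where 14.7% of all genes rose and 8.13% fell, with Tsp42Eg at 0.66 and Tsp42Ec at -0.78. These counts were 0 and 2 without knockdown 3, 3 and 3 without control 2, and 3 and 4 without control 1.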
